A study of Homo sapiens with 4 samples.

Results

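Genes that ERK signaling induces and that in turn limit it or carry it into the nucleus were examined in GIST-T1, an established human line grown from a gastrointestinal stromal tumor (GIST), after ectopic miR-34a expression. The genes were DUSP4, DUSP5, DUSP6, SPRY2, SPRY4, SPRED1, SPRED2, ETV4, ETV5 and FOSL1, and every probe of the array that carries exactly 1 of these names was taken. This gave 10 genes and 11 probes of the 36337 gene names and 50599 probes on the array. Both groups consisted of the same cell line at the same time point: 3000000 cells received 100 pmol of a miR-34a mimic or of a negative control RNA by nucleofection, and RNA was taken after 48 h. Each condition had 2 arrays. As a model these samples hold a single cell line, to which the miRNA was supplied from outside.

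KIT, the receptor tyrosine kinase of most GISTs, activates RAS, which activates the kinases RAF, MEK and ERK in turn. The study states that the KIT gene of GIST-T1 carries a gain-of-function mutation. Active ERK switches on genes whose products act back on the same pathway: dual-specificity phosphatases (DUSPs) remove phosphate from ERK, whereas Sprouty and Spred proteins act upstream, between the receptor and RAF. ERK also raises the transcription factors ETV4 and ETV5, of the PEA3 family, and FOSL1, a component of AP-1, and levels of these mRNAs are widely used as a readout of ERK output.

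The mimic carries the sequence of the mature miRNA, which is shown because its seed (bases 2 to 8, in capitals) is the part that pairs with target mRNAs. RefSeq places it at chr1:9151735-9151756 on the minus strand (GRCh38.p14).
hsa-miR-34a-5p: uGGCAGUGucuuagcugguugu
The 7-mer that pairs with the seed is CACTGCC. It stood in 220 of the 50599 probes (0.435%), the shifted 7-mer ACTGCCA in 199 (0.393%) and the shared 6-mer ACTGCC in 659 (1.3%). None of the 11 probes of the feedback genes held any of these strings, so the probes measured stretches of the mRNAs without these letters. Other parts of the mRNAs were not examined here.

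Most of the feedback genes were slightly lower with the miR-34a mimic, and only DUSP5 was lower by more than 1.5-fold. The 10 probes that could be tested were well above background on all 4 arrays, and 9 of them had both miR-34a mimic arrays below both negative control arrays, where 30.1% of all 21474 tested probes did. The remaining probe, for SPRED1, had both mimic arrays above both control arrays, as did 30.4% of all tested probes. The median log2 difference of the 10 probes, miR-34a mimic minus negative control, was -0.13, and over the 9 genes with 1 probe each it was -0.12, against -0.0068 over all 16201 genes tested. Quantile normalization and normexp background correction each brought most of the small decreases nearer to 0, by unequal amounts. SPRY2 went from -0.14 to -0.07 and -0.08, whereas ETV4, at -0.12, was at -0.13 and -0.12. All values are differences of mRNA in a whole culture, in which fewer cells expressing a gene and less RNA per cell cannot be told apart.

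A decrease of more than 1.5-fold was measured for 4.82% of all tested probes and an increase of that size for 2.11%. Among the feedback genes 1 of 10 probes was lower by that much and 0 were higher. By limma, 0 of the 10 probes passed the adjusted p threshold of 0.05, and so did 0 (0%) of the whole array, where no probe went below an adjusted p of 0.0949. With an unadjusted p under 0.05, 4 of the 10 passed (DUSP5, DUSP6, the dimmer SPRY4 probe and SPRED1), against 24.3% of all tested probes. In a limma fit whose variance follows a trend with signal (the variance trend), only DUSP5 passed at an adjusted p under 0.05, where 7.26% of all tested probes did. The smallest p that an exact two-sided permutation of 2 and 2 arrays allows for 1 probe is 0.333.

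**Figure D1:**
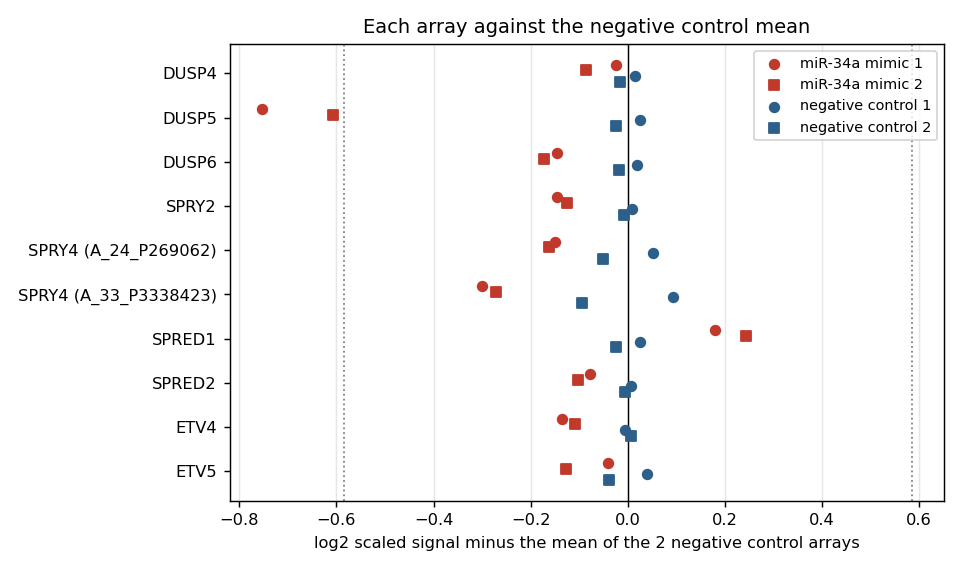
Scaled log2 signal of each array minus the mean of the 2 negative control arrays, for the 10 tested probes of the feedback genes. Red marks are the miR-34a mimic arrays, blue marks the negative control arrays, and dotted lines mark a 1.5-fold difference. Both mimic arrays lie left of both control arrays in every row but SPRED1, and only DUSP5 lies beyond a dotted line.

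The arrays were comparable in range. Between 41.9% and 45.3% of the probes were well above background on an array, 0 spots were saturated, and all 4 arrays lay on 1 slide read in 1 scan. The values given are log2 processed signals after subtraction of the 75th percentile of the array, so that 0 is the signal at that percentile. Replicate arrays differed on the log2 scale with an SD over the tested probes of 0.337 with the mimic and 0.29 with the control. The receptor at the head of the pathway was lower: the brightest KIT probe gave 6.74 and 6.79 with the mimic and 7.46 and 7.46 with the control, a 1.62-fold difference (log2 -0.70, SE 0.055, adjusted p = 0.0949 by limma and 0.0073 with the variance trend). PDGFRA, the related receptor that drives a subset of GISTs, gave 4.48 and 4.35 against 5.98 and 5.92, a difference of 2.9-fold (log2 -1.53, SE 0.075, adjusted p = 0.0949 and 0.0048). Neither receptor overlapped between the conditions.

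The phosphatases were all on the lower side, with log2 differences between -0.68 and -0.056 and a median of -0.16 over the 3 genes. DUSP5, a nuclear phosphatase that inactivates and retains ERK, was read by probe A_23_P150018 (hg19 chr10:112270900-112270959). Its processed signal was 119.4 and 132.7 with the miR-34a mimic and 207.4 and 194.1 with the negative control. On the scaled log2 scale these were -0.28 and -0.14 against 0.50 and 0.45, so the conditions were separated by more than the spread within either. The difference was 1.60-fold (log2 -0.68, SE 0.077, 95% interval -0.90 to -0.45). Its adjusted p was 0.0949 by limma, above the threshold, and 0.0211 with the variance trend, below it. Normexp background correction was run with an offset of 50, which is added to every signal and lessens log2 differences of dim probes most. With it the decrease of DUSP5 was smaller, -0.49 on the log2 scale, which is less than 1.5-fold. The adjusted p by limma was then 0.0305.

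DUSP6, a cytoplasmic phosphatase specific for ERK, gave a very bright signal from probe A_23_P139704 (hg19 chr12:89742144-89742203). Its scaled signal was 7.04 and 7.01 with the mimic and 7.20 and 7.16 with the control. The conditions did not overlap, but the difference of 1.12-fold was small (log2 -0.16, SE 0.054, 95% interval -0.32 to -0.0015, adjusted p = 0.203 by limma). After quantile normalization it shrank to -0.06. DUSP4, a nuclear phosphatase that acts on ERK and other MAP kinases, was read at hg19 chr8:29194382-29194441 by probe A_23_P134935. Its values of 2.80 and 2.74 with the mimic lay next to 2.84 and 2.81 with the control. Here the gap between the conditions, from 2.80 to 2.81, was narrower than the gap between the 2 mimic arrays. The difference was 1.04-fold (log2 -0.056, SE 0.058, 95% interval -0.22 to 0.11, adjusted p = 0.572 by limma), which leaves a change of the size seen for DUSP5 outside the interval.

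The Sprouty and Spred genes went both ways, with 4 of 5 probes on the lower side and a median log2 difference of -0.14. SPRY2, which restrains RAS activation downstream of receptor tyrosine kinases, was read by A_23_P128698 (hg19 chr13:80910622-80910681). It gave 5.46 and 5.48 with the mimic against 5.62 and 5.60 with the control. Replicates were close together and the conditions were apart, by 1.10-fold (log2 -0.14, SE 0.052, 95% interval -0.29 to 0.02, adjusted p = 0.237 by limma). Quantile normalization gave -0.07 and normexp -0.08.

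SPRY4, a Sprouty protein that inhibits the same pathway, had a pair of probes at different places on the chromosome. The brighter, A_24_P269062 (hg19 chr5:141690571-141690630), gave 5.37 and 5.36 with the mimic and 5.57 and 5.47 with the control. The dimmer, A_33_P3338423 (hg19 chr5:141694487-141694546), gave -1.50 and -1.47 against -1.10 and -1.29. Both probes were lower with the mimic on both arrays, and for both the control arrays were farther apart than the mimic arrays. The difference was 1.11-fold on the first probe (log2 -0.16, SE 0.065, 95% interval -0.34 to 0.03, adjusted p = 0.252 by limma) and 1.22-fold on the second (log2 -0.29, SE 0.088, 95% interval -0.54 to -0.03, adjusted p = 0.182). The intervals overlap, and the difference between the probes was not tested.

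SPRED1, which brings neurofibromin to the membrane to switch RAS off, was the only feedback gene on the higher side. Probe A_24_P107859 (hg19 chr15:38645760-38645819) gave 0.26 and 0.32 with the mimic and 0.11 and 0.06 with the control. The 2 conditions were farther apart than the replicates of either, and the difference was 1.16-fold (log2 0.21, SE 0.060, 95% interval 0.04 to 0.38, adjusted p = 0.166 by limma). Its paralog SPRED2, read by A_32_P225854 (hg19 chr2:65538851-65538910), gave 2.33 and 2.30 against 2.41 and 2.40. This was lower by 1.06-fold (log2 -0.09, SE 0.053, 95% interval -0.24 to 0.06, adjusted p = 0.365), and the intervals of the 2 Spred genes overlap only between 0.04 and 0.06. The difference between them was not tested.

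The tested transcription factors, ETV4 and ETV5, were on the lower side by small amounts, with a median log2 difference of -0.10. ETV4, read by A_24_P416346 (hg19 chr17:41605966-41606025), gave 1.56 and 1.59 with the mimic and 1.69 and 1.71 with the control. ETV5, read by A_32_P30649 (hg19 chr3:185764547-185764606), gave 3.20 and 3.11 against 3.28 and 3.20. ETV4 was apart by 1.09-fold (log2 -0.12, SE 0.053, 95% interval -0.28 to 0.03, adjusted p = 0.267 by limma), whereas for ETV5 the higher mimic array and the lower control array all but coincided (log2 -0.08, SE 0.068, 95% interval -0.28 to 0.11, adjusted p = 0.479). FOSL1, read by A_23_P161624 (hg19 chr11:65660098-65660157), was not well above background on any of the 4 arrays, with processed signals of 3.41 and 3.62 with the mimic and 6.51 and 6.78 with the control. It was therefore not tested, and no fold is given for it.

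**Figure D2:**
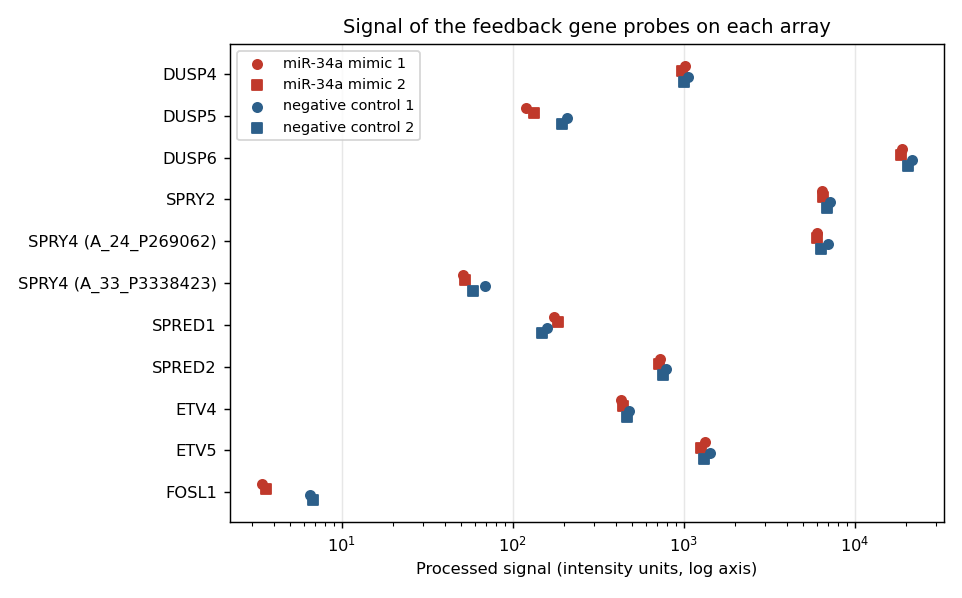
Processed signal, on a log axis in intensity units, of the 11 probes of the feedback genes on each of the 4 arrays before scaling. Marks of 1 probe lie close together except for DUSP5, where the mimic arrays (119.4 and 132.7) lie left of the control arrays (207.4 and 194.1), and for FOSL1, which was not well above background. Signals of different probes are not to be compared.

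RefSeq promoter windows were given for 5 of the 10 genes (DUSP6, SPRY2, SPRY4, SPRED1 and SPRED2), in 8 windows. In each window only the 250 bases before the annotated start were searched, on both strands. The first string was CGGAAG, 1 form of the motif that ETS factors such as ETV4 and ETV5 bind. The others were TGACTCA, the AP-1 motif that FOSL1 dimers bind, the cyclic AMP response element TGACGTCA and the GC box GGGCGG. Other forms of the ETS motif were not searched, so windows without CGGAAG may hold them. No motif searched contains another. CGGAAG stood in 1 of the 8 windows (DUSP6) and in 16.5% of all 35116 windows, and GGGCGG in 3 of the 8 (SPRY2, SPRY4 and SPRED1) and in 42.6% of all. TGACTCA and TGACGTCA stood in 0 of the 8, and in 4.2% and 1.65% of all windows. The 250 bases before the annotated start are given for DUSP6, the phosphatase with CGGAAG. They are also given for SPRY4 and SPRED1, which lay on opposite sides of the control.

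The DUSP6 window is chr12:89352502-89352751 on the minus strand, the SPRY4 window chr5:142324248-142324497 on the minus strand, and the SPRED1 window chr15:38252586-38252835 on the plus strand (GRCh38.p14, gene strand, 5′ to 3′). Capitals mark the match to a searched string. In DUSP6 it is CGGAAG on the opposite strand, 62 bases before the start. In SPRY4 it is the GC box, 183 bases before the start. In SPRED1 it is the GC box on the opposite strand, 31 bases before the start. The GC content of the windows was 57.2%, 65.6% and 78.4%.
DUSP6: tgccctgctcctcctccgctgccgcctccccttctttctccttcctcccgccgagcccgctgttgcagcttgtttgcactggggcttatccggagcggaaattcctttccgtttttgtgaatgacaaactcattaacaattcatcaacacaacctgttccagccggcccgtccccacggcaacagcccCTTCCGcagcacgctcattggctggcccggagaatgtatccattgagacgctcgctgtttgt
SPRY4: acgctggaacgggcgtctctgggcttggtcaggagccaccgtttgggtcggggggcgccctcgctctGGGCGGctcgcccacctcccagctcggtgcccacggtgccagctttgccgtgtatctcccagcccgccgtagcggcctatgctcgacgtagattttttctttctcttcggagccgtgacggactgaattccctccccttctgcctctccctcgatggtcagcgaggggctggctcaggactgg
SPRED1: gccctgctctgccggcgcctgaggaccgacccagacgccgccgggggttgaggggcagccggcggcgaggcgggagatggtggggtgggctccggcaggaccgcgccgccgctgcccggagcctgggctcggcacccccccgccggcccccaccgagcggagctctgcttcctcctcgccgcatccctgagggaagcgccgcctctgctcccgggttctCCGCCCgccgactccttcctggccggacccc
A match is a string of letters and does not show that a factor binds there.

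Because the differences were small, the signal of a probe and the scaling between arrays matter for their size. The DUSP6, SPRY2 and brighter SPRY4 probes lay in the brightest of 10 equal bins of the tested probes by signal, whose median log2 difference was -0.04. Quantile normalization moved that median to 0.02 and moved these 3 probes to -0.06, -0.07 and -0.11. DUSP5 and SPRED1 lay together in the fifth bin, with a median of 0.02, and quantile normalization left DUSP5 at -0.68 and SPRED1 at 0.21. The direction of all 10 tested probes was the same under every alternative run, including quantile normalization, normexp and the omission of each array in turn. What the signal dependence contributes to the small decreases of the bright probes was not tested.

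**Figure D3:**
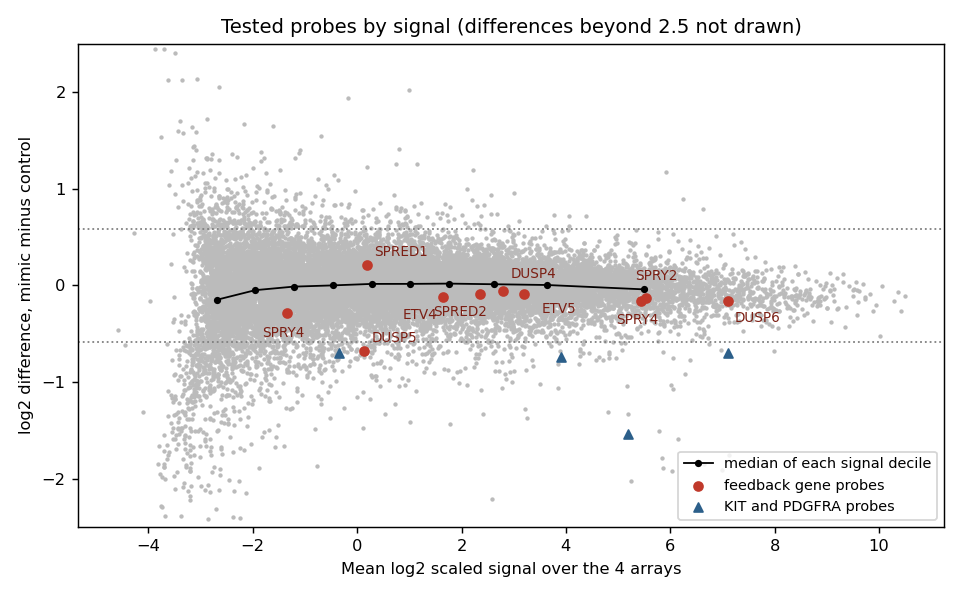
Log2 difference (miR-34a mimic minus negative control) against the mean scaled log2 signal over the 4 arrays for the tested probes, in gray. Red points are the feedback gene probes, blue triangles the KIT and PDGFRA probes, the black line joins the medians of 10 equal bins by signal, dotted lines mark 1.5-fold, and 19 probes beyond 2.5 are not drawn. The bright DUSP6, SPRY2 and SPRY4 probes lie just under the black line, DUSP5 lies below the lower dotted line and SPRED1 above the black line.

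**Figure D4:**
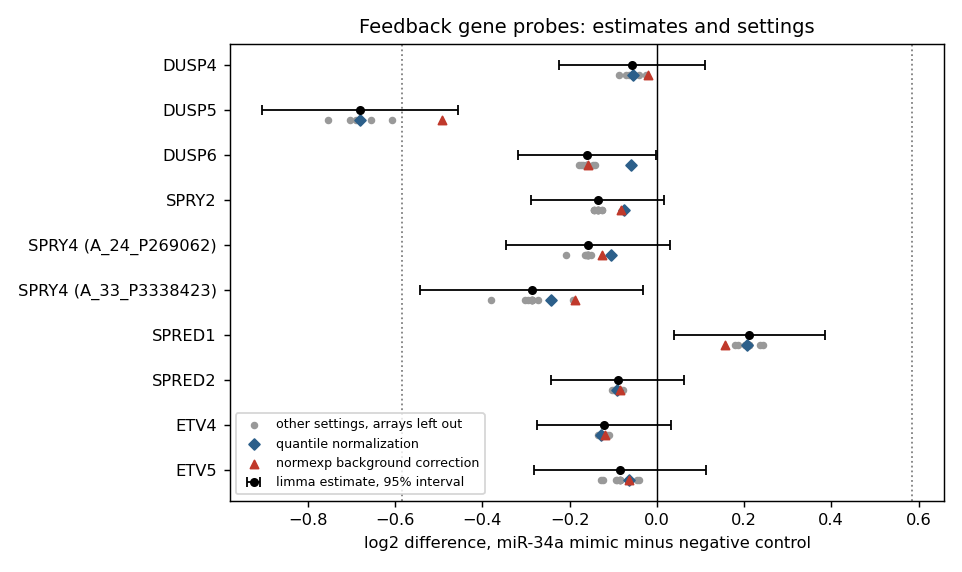
Log2 difference (miR-34a mimic minus negative control) of the 10 tested probes. Black points and bars are the limma estimate with its 95% interval, and the marks under each bar are the estimates under other settings, with quantile normalization as a blue diamond, normexp as a red triangle and the remaining settings, with the omission of each array, as gray points. No estimate crosses 0, the DUSP5 estimate with normexp (-0.49) lies inside the dotted 1.5-fold line, and the DUSP6 estimate with quantile normalization (-0.06) lies far to the right of its other marks.

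The rest of the pathway was read from 8 lists with 1 probe per gene, beside all 16201 genes tested, of which 4.85% were lower and 1.96% higher by more than 1.5-fold and 51.3% had a log2 difference below 0. No gene of any list passed an adjusted p of 0.05 by limma (0 of all genes did), so calls given here are those with the variance trend, which passed 1310 of the 16201 genes. Upstream of ERK the balance was even with 1 probe per gene. Of 12 receptors and adaptors, 2 were lower by more than 1.5-fold (KIT and PDGFRA), 6 were below 0 and 6 above, and the median was -0.0066. With the median over the probes of a gene it was -0.07. PTPN11 was counted above 0 (0.09), whereas further tested probes of it gave -0.86 and -0.36. The list of RAS, RAF, MEK and ERK also held KSR1 (-0.35) and SHOC2 (-0.00058). ARAF was counted below 0 (-0.15), whereas its second tested probe gave 0.18. Of the 12 genes of this list, 5 were below 0 and 7 above, with a median of 0.04. MAP2K1, which encodes the kinase MEK1, was the farthest from 0 among them (log2 -0.57, SE 0.131, 1.49-fold, adjusted p = 0.134 by limma and 0.0447 with the variance trend). Without the first mimic array its difference was -0.73 and without the second -0.42. On the higher side NRAS, a RAS protein, and MAPK3, which encodes ERK1, were the farthest, at 0.15 each. NRAS overlapped between the conditions and ranged from 0.05 without the second mimic array to 0.26 without the first, and its second probe gave 0.25, whereas MAPK3 did not overlap and stayed at 0.15 without any 1 array.

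Among 8 inhibitors of RAS and of receptors, 4 were below 0 and 4 above, and the farthest were RASA2 at -0.44 and RASA1 at 0.27, both activators of the GTPase function of RAS. With normexp they were at -0.23 and 0.17. The median of this list was -0.0067, and it was 0.07 without the first mimic array and -0.07 without the second. PEBP1 was counted below 0 (-0.03) though its arrays overlapped, and it was at 0.14 without the first mimic array. Its second tested probe gave 0.22. NF1 was counted below 0 (-0.37), and its further tested probes gave -0.41, -0.16, -0.49 and 0.04. Among 13 ERK substrates, 10 were below 0 and 3 above with a median of -0.11. This median was -0.03 without the second mimic array, -0.06 after quantile normalization and -0.06 with the median over the probes of a gene. Of those below 0, ERF, RPS6KA3, ELK3, ELK4 and CIC overlapped between the conditions, and of those above 0 ETS2 did. Further tested probes of ELK1, ELK4 and RPS6KA3 lay above 0 (0.06, 0.04 and 0.00087), whereas those of RPS6KA1 and MKNK2 stayed below (-0.10 and -0.05). SRF, the serum response factor, was lowest at -0.49 (-0.21 without the second mimic array) and MKNK1, a kinase that phosphorylates a translation initiation factor, highest at 0.40, and neither passed with the variance trend. In that list ETS1 (-0.38) and RPS6KA2 (0.34) did pass, and they are named because they passed, after their values were seen. RPS6KA2 had 2 further tested probes, at 0.12 and 0.14, and neither passed (adjusted p = 0.556 and 0.340 by limma with the variance trend).

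Other genes of the feedback and immediate-early classes lay mostly below 0. Of 5 other MAP kinase phosphatases tested, all 5 were below 0 with a median of -0.18, and 1 was lower by more than 1.5-fold. The median depended on single arrays: it was -0.40 without the first mimic array, -0.08 without the second, -0.31 without the second control array and -0.05 with no filter on dim probes. DUSP9 was above 0 without the second mimic array (0.04) and DUSP16 without the first control array (0.20). The gene past 1.5-fold was DUSP2, a nuclear phosphatase, whose scaled signal was -2.46 and -2.34 with the mimic and -1.58 and -0.96 with the control (2.19-fold, log2 -1.13, SE 0.242, adjusted p = 0.129 by limma and 0.0604 with the variance trend). The control arrays of DUSP2 were far apart, and with normexp its difference was -0.53. A DUSP8 probe (-0.35) passed with the variance trend and is named for that reason, whereas a second DUSP8 probe, also well above background on all 4 arrays, overlapped between the conditions at 0.02 (adjusted p = 0.952 by limma with the variance trend).

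Of the other Sprouty and Spred genes, SPRY1 gave -0.19 (-0.09 on its second probe) and SPRY3 gave -0.59. SPRY3 was well above background on 3 of 4 arrays, and its difference was -0.37 without the first mimic array and -0.19 with normexp. Of 6 other AP-1 and PEA3 genes tested, 4 were below 0 and 2 above, with a median of -0.15, which was -0.07 without the second mimic array and -0.10 without the first control array. ETV1 was counted below 0 from its brightest probe (-0.07), and its further tested probes gave 0.29, 0.05 and -0.02. JUNB, an AP-1 component, gave -1.53 and -1.41 with the mimic and -0.78 and -0.91 with the control (1.54-fold, log2 -0.63, SE 0.083, adjusted p = 0.0953 by limma and 0.0527 with the variance trend). It did not stay past 1.5-fold without the first mimic array (-0.57), without the first control array (-0.56) or with normexp (-0.34).

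Of 12 other ERK-induced genes tested, 9 were below 0 and 3 above with a median of -0.27 (-0.15 with normexp), and 2 were lower by more than 1.5-fold. EGR1, an immediate-early transcription factor, gave 4.18 and 4.32 with the mimic and 5.04 and 4.96 with the control (1.68-fold, log2 -0.75, SE 0.078, adjusted p = 0.0949 by limma and 0.0104 with the variance trend). EPHA4, an Eph receptor tyrosine kinase, gave 1.98 and 1.98 against 2.70 and 2.67 (1.64-fold, log2 -0.71, SE 0.053, adjusted p = 0.0949 and 0.0085). With the variance trend 5 of the 12 passed, all on the lower side. The other 3 were IER2 (-0.56), EGR2 (-0.52) and CCND1 (-0.21), named after their values were seen. On the higher side MYC was at 0.53, on a dim probe, and at 0.16 with normexp. It did not pass with the variance trend, and it too is named after its value was seen.

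**Figure D5:**
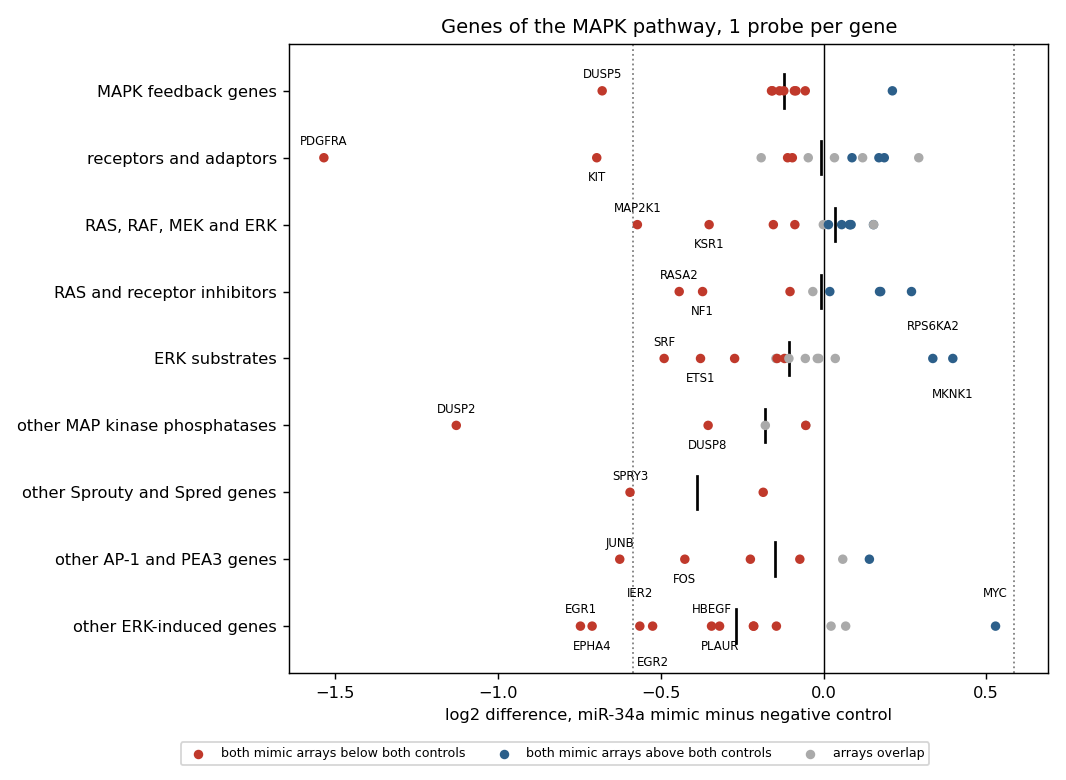
Log2 difference (miR-34a mimic minus negative control) of each tested gene of the feedback genes and of the 8 other lists, 1 probe per gene. Red points have both mimic arrays below both control arrays, blue points both above, gray points overlap, black bars are list medians and dotted lines mark 1.5-fold. With 1 probe per gene the upstream lists are centered near 0 (medians between -0.0067 and 0.04 in the lists of receptors, of RAS to ERK and of inhibitors), the 9 feedback genes have a median of -0.12, and the other ERK-induced genes one of -0.27. With the median over the probes of a gene, not drawn, the receptor list was at -0.07.

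Markers were checked against the label of the line. All 5 GIST markers (KIT, ANO1, ETV1, CD34 and PRKCQ) were well above background on all 4 arrays. Their summed processed signal was 28582 to 29335 with the mimic and 38882 to 40242 with the control, and without KIT it was 11339 to 11357 against 10905 to 11263. Of 3 markers each, 0 Schwann cell and 0 mast cell markers were well above background on any array, and 0 endothelial markers were on all 4. Single markers of other cell types were detected on all 4 arrays: DES of 3 smooth muscle markers, CD14 of 3 leukocyte markers and EPCAM of 3 epithelial markers. The CD14 and EPCAM probes were dim, with processed signals of 18.7 to 34.4 and of 29.5 to 45.2. The summed signal of the smooth muscle markers was 267 with the mimic and 336 to 360 with the control. Most of it was DES (233 and 245 with the mimic, 312 and 310 with the control). The part of this signal in the results was not tested.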

How the data were processed

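Gene expression in GIST-T1 cells was measured on one-color Agilent arrays, with 2 miR-34a mimic and 2 negative control arrays as the sample labels name them. The authors deposited the intensity of every spot, extracted with Agilent Feature Extraction 10.7 (submitters' processing notes), which subtracts background without scaling between arrays, with flags for spots well above background, and the same intensity values of all arrays joined (within 0.496% of the scanner values, 0 unmapped columns). Whether the 2 arrays of a condition came from separate cultures is not stated, so p-values measure only the spread between them, which may be technical. Precision is limited by how few arrays there are.

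Control and outlier spots (293 to 424 of 58717 per array) were dropped, spots of a probe were averaged, and the log2 processed intensity had the array's 75th percentile subtracted. Probes flagged well above background on both arrays of either condition or of both (21474) were tested with limma 3.58.1 (lmFit and eBayes, 3.58 degrees of freedom after moderation) and Benjamini-Hochberg adjustment over all of them (R 4.3.3, with version 1.17.8 of data.table). The fold threshold of 1.5 is that of the study's array results, and its statistics section gives t tests as a general method without naming the arrays. In lists, the tested probe with the highest mean signal stood for a gene. Names of genes and positions in hg19 were read from the scanner files. Where a probe lies in its transcript was not analysed here. The genes, lists and tests were chosen with earlier results of these data known. The rule for named genes was the feedback genes, KIT and PDGFRA, and in each list the genes past 1.5-fold or else the farthest in each direction. Alternatives were normexp (offset 50), quantile normalization, the 75th percentile over detected probes, other filters on dim probes, the authors' table, a replicate block, a variance trend, the methods' t-test, another probe rule for lists and leaving out each array. On simulated data, 137 (68.5%) of 200 probes changed by 1.5 on the log2 scale among 21474 were called, and 6 unchanged probes. That change was larger than any measured for a tested feedback gene probe. On the measured arrays limma called 0 of the 21474 probes at an adjusted p under 0.05. The share of 68.5% is therefore not the power to detect differences of the feedback genes.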

Additional observations from a re-analysis of the deposited data

How the results depend on the processing

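Of the 10 tested probes of the feedback genes, 1 (DUSP5) was lower by more than 1.5-fold. With normexp background correction 0 were, and with no filter on dim probes 2 were, as FOSL1, not well above background on any array, was then tested. At an adjusted p under 0.05, 0 probes passed by limma, and 1 (DUSP5) passed with normexp and 1 with the variance trend. Without each array in turn, the count lower by more than 1.5-fold was 1 to 1, the count higher 0 to 0 and the count called 0 to 0. Whether the replicate numbers pair the arrays is not stated, and the replicate differences were nearly uncorrelated between the conditions (-0.028). With the replicate number as a block, 0 probes were called and 1 was lower by more than 1.5-fold. The adjusted p of DUSP5 by limma was then 0.222, against 0.0949 without the block and 0.0211 with the variance trend. No direction of a tested feedback gene probe turned. Over all tested probes, 1034 were lower and 453 higher by more than 1.5-fold (69.5% of these lower), against 184 and 68 with normexp, 6811 and 2069 with no filter, 517 and 287 among probes detected on all 4 arrays, and 774 and 705 (52.3% lower) after quantile normalization. At an adjusted p under 0.05, 877 probes passed with normexp, 1559 with the variance trend, and 1 by the methods' t-test after Benjamini-Hochberg adjustment, against 0 by limma. The causes were not tested.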
